A study of Equus caballus with 17 samples.

Results

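Among the small RNAs of horse (Equus caballus) testis and sperm, 387 of the 1459 predicted hairpins (26.5%) were tied to each other by shared stretches of sequence and formed 1 family. A predicted hairpin is a stretch of the genome whose small-RNA reads and foldable sequence led the submitters' software to list it as a possible miRNA precursor. Hairpins were linked where their sequences, as written in the table, had any 14 identical bases in a row, and the family is the largest group connected by such links. The next largest family had 19 hairpins, 97 families had at least 2, and 764 hairpins were linked to none. The links used sequence alone and no measured level. The study sampled testis at 4 stages, labelled Infant (n = 3), Pre-puber (n = 3), Puber (n = 3) and Adult (n = 4), and Sperm (n = 4). All samples came from horses, and the labels give no treatment, genotype, breed or age beyond the stage. One title number covers both Infant 31a and 31b, and another both Pre-puber 3a and 3b. Nothing in the labels ties each replicate to its own animal, so the p-values reflect only how far these libraries differ, which may be technical.

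Animal miRNA precursors are short hairpins from which the enzymes Drosha and Dicer cut a mature strand, and prediction software searches small-RNA reads for that pattern. Interspersed repeats are copies of mobile elements scattered through a genome, and reads or folds that arise from them are a known difficulty for such software. The horse genome holds many short interspersed elements (SINEs) derived from tRNA genes, which RNA polymerase III transcribes from an internal promoter. The letters GGUUCGA are the core of the T arm of many tRNAs and of that promoter's B box. The testis makes several other classes of small RNA beside miRNAs, among them piRNAs of the germ line and fragments of tRNA. The table carries no repeat or gene annotation of the hairpins, so whether a member lies in a repeat, an exon or an intron was not analysed here.

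The 6 members with the highest summed counts show the forms the family takes. Capitals mark any of 8 short motifs on either strand: GAGGAAGA, GCCCUGAG, CUAGUUGU, CAGCAUGG and GUGUGUGU of 8 letters, and GGACAUG, then GGUUCGA, then UAAGUUC of 7. Member 2_3250540 lies at chr2:5152820-5152929 on the plus strand of EquCab3.0, 3_3841966 at chr3:90484145-90484202 on the minus strand, and 16_1243500 at chr16:87432789-87432859 on the plus strand. Member 15_1041433 lies at chr15:82462600-82462653 on the plus strand, 4_3907974 at chr4:54177350-54177418 on the plus strand, and 18_1583209 at chr18:64747389-64747498 on the minus strand.
2_3250540: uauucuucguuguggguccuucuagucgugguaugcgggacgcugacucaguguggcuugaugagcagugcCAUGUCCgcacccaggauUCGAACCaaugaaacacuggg
18_1583209: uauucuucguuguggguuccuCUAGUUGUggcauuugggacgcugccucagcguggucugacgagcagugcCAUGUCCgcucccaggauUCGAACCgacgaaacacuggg
16_1243500: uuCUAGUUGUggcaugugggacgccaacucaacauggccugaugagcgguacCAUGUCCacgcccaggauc
4_3907974: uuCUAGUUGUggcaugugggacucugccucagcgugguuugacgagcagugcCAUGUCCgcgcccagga
15_1041433: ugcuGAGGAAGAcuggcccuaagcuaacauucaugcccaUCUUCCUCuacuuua
3_3841966: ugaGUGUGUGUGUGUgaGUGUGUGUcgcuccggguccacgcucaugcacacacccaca
Members 16_1243500 and 4_3907974 shared a run of 22 bases at their 5′ ends, and 4_3907974 and 18_1583209 shared another of 22 bases. Members 2_3250540 and 18_1583209 held the reverse complement of GGUUCGA, printed as UCGAACC. Member 15_1041433 held GAGGAAGA near its 5′ end and the reverse complement near its 3′ end, which could pair with each other. The folding program RNAfold paired 40.7% of its bases, against a median of 62.7% over members. Member 3_3841966 begins with an interrupted GU repeat and was linked to 2 other members.

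The most shared stretches belong to a second form, shown here by 1 member (the one with the highest summed count) for each stretch, and by a pair with identical counts. Member 9_5001616 lies at chr9:35235611-35235656 on the plus strand and was linked to 81 members. Member 20_2272886 lies at chr20:61729814-61729868, 11_401014 at chr11:45486352-45486394 and 10_185046 at chr10:54808563-54808603, all on the minus strand.
9_5001616: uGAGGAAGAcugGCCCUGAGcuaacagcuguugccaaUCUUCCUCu
20_2272886: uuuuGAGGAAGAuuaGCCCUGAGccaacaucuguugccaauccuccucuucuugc
11_401014: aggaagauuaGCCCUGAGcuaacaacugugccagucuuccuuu
10_185046: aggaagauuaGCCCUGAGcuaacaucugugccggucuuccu
The 3 stretches of 14 bases held by the most members were ugccaaucuuccuc in 47 members (12.1%), and aagauuagcccuga and aggaagauuagccc in 39 each (10.1%). GAGGAAGA or its reverse complement stood in 144 members (37.2%) and in 9 of the 1072 other hairpins (0.84%), and 38 members held both. GCCCUGAG stood on either strand in 102 members (26.4%) against 6 other hairpins (0.56%), GGACAUG in 54 (14.0%) against 6, and CAGCAUGG in 39 (10.1%) against 6. UAAGUUC stood in 30 members (7.75%), CUAGUUGU in 29 (7.49%), GGUUCGA in 11 (2.84%) and GUGUGUGU in 8 (2.07%). In the other hairpins the shares for these last 4 were 0.28%, 0.0933%, 0.373% and 0.746%. In all, 303 members (78.3%) and 43 other hairpins (4.01%) held at least 1 of the 8. The 8 motifs were a set list chosen with earlier results of these data known, so these counts describe the family and test nothing.

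The members were short and scattered. Their lengths ran from 38 to 110 bases with a median of 52, against a median of 61.5 in the other hairpins. Their median GC content was 51.5%, against 53.4%. RNAfold gave a median folding energy of -0.32 kcal/mol per base in members and -0.33 in the others, with 62.7% and 63.2% of bases paired, so the medians lay close together. The first base was U in 122 members (31.5%) and in 474 other hairpins (44.2%). Members stood on all 32 chromosomes that carried hairpins, 29 of them on chromosome 1 and 12 on X, with 208 on the plus strand and 179 on the minus strand. Only 8 pairs lay within 10000 bases of each other, and 6 of those overlapped.

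Members were linked to a median of 13 others, from 1 to 92. At the edge of the rule, 9 members had a longest shared stretch of exactly 14 bases, with a median summed count of 265. Another 18 hairpins shared 13 bases with a member and stayed outside, with a median summed count of 126.5. Taking out any 1 of 17 bridging members split off at most 7 others. It grew to 717 hairpins with a shared stretch of 12 bases and shrank to 257 with 18.

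Many members were not separate measurements. The 387 members had 374 distinct sequences but 308 distinct sets of counts over the 17 libraries. In 38 sets, 117 members carried exactly the same count in every library as another member, and the largest set held 9 members. In 33 of these sets the sequences differed, and the part common to the whole set was 20 to 38 bases long with a median of 24. That part lay at the 5′ end of every member in 15 sets and at the 3′ end in 18. Members 11_401014 and 10_185046, printed above, belong to the set of 9, in which all members begin with the 24 bases aggaagauuagcccugagcuaaca and each carries 6812 counts in total. A count of members called by a test therefore counts some reads more than once, and counts over distinct sets are given where a result turns on it. Distinct sets can still be nearly equal. In Adult 13, 20, 33 and 4, 10_185046 had 874, 453, 924 and 788 counts, and 13_632207, of another set, had 855, 445, 886 and 774. Counts over distinct sets thus remove only part of the repetition.

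With 1 row per identifier, the libraries held 1.77 to 15.3 M (mega) counts, of which 1.48 to 13.1 M were of annotated miRNAs. Depth fell with the stage, from a mean of 11.7 M in Infant to 2.24 M in Sperm. Sperm RNA had a shorter DNase treatment and a phenol:chloroform step, per the labels, so preparation and cell type cannot be told apart in any comparison with Sperm. Levels below are in CPM, which are counts scaled to the library's annotated reads and a TMM factor. Marker miRNAs were summed for each listed cell type. Germ cells from meiosis on are rich in miR-34b-5p, miR-34c, miR-449a and miR-449b, and their summed level was 16.5 to 45.9 CPM in the Infant libraries. Pre-puber 3a stood at 41.4 CPM, within the Infant range, 3b at 74.1 and 14 at 2609. It was 11503 to 20975 for Puber, 35078 to 52928 for Adult, and 89621 to 231963 for Sperm. The stromal miR-145, miR-199a-5p and miR-199b-5p summed to 12356 to 44268 CPM in testis and to 45.1 to 115 in Sperm. Blood-cell miRNAs (4 of 7 in the table) summed to 831 to 6099 CPM over all groups, and miR-126-5p of endothelium to 25.3 to 640. No marker in the table was at 0, and none of the 5 epithelial names nor miR-202 was among the annotated names. Their part in the results below was not tested. In bulk tissue, fewer cells of a type and less RNA per cell cannot be told apart.

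The family took a small share of the small RNA in young testis and a larger one from Puber on. It held 0.111%, 0.122% and 0.137% of all counts in the Infant libraries, and 0.347%, 0.204% and 0.748% in Pre-puber 3a, 3b and 14. In Puber the shares were 1.73%, 2.46% and 3.12%, in Adult 5.52%, 2.72%, 2.75% and 3.97%, and in Sperm 4.20%, 2.39%, 4.37% and 2.57%. The stages Infant, Pre-puber and Puber did not overlap, while Adult overlapped both Puber and Sperm. The mean share was 0.123% ± 0.0132 (SD, n = 3) for Infant and 0.433% ± 0.282 (n = 3) for Pre-puber. For Puber it was 2.43% ± 0.695 (n = 3), for Adult 3.74% ± 1.32 (n = 4) and for Sperm 3.38% ± 1.05 (n = 4). The 95% Wilson intervals of single libraries reached at most 0.0301 percentage points to either side, which covers counting error only and is far below the spread between libraries. With each set of identical counts taken once, the Adult shares were 2.06% to 4.36%. The other predicted hairpins together held 9.0% to 20.2%.

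**Figure D1:**
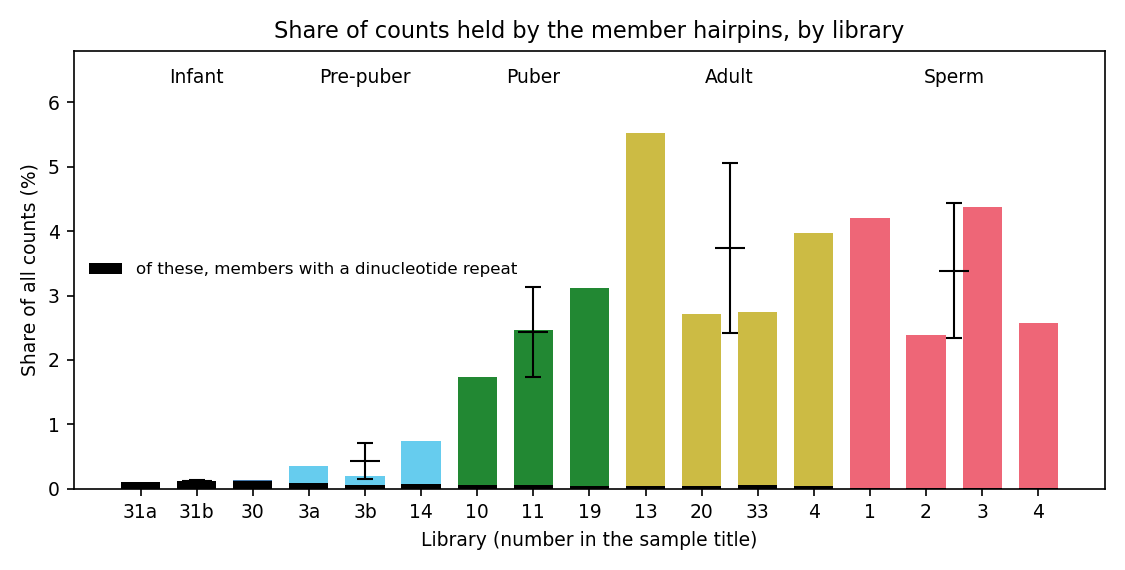
Share of all counts (%, vertical axis) held by the 387 members in each library (bars, named by title number), with the group mean and SD as horizontal marks and error bars; black parts are members holding GUGUGUGU or its reverse complement. The Infant bars, 0.111% to 0.137%, are almost all black, and the Puber, Adult and Sperm bars stand between 1.73% and 5.52%.

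Nearly all of the Infant share was held by members with a GU repeat, and most of it by 2 of them. The 8 members with GUGUGUGU on either strand held 0.104% to 0.126% of all counts in Infant, and all other members together 0.00666%, 0.00829% and 0.0109%. The summed share of the repeat members fell to 0.045% to 0.0547% in Adult and to 0.00915% to 0.0158% in Sperm. Over the 3 Infant libraries, 3_3841966 had 28908 counts and 15_1071104 had 11284. These 2 fell from Infant to Adult, while 5 of the 7 repeat members tested rose. The 10 leading members made 94.7% of the family's counts in Infant and 51.4% in Pre-puber, as group means. For Puber the figure was 22.0%, for Adult 23.8% and for Sperm 43.0%. The median level of a member was at most 0.117 CPM in the Infant libraries and 0.25 to 6.0 in Pre-puber. It was 17.8 to 26.0 CPM for Puber, 22.6 to 53.1 for Adult and 15.8 to 36.1 for Sperm. Of the 387 members, 65 to 80 had at least 5 counts in an Infant library and 348 to 371 in an Adult library. In all 3 Infant libraries 121 members (31.3%) were at 0, although those libraries were among the deepest. The mean level was highest in Sperm for 220 members, in Adult for 112, in Puber for 52, in Infant for 2 and in Pre-puber for 1. Which of Sperm and Adult is higher depends on the scaling. The members' median log2 fold change of Sperm against Adult was 0.46 on this scale. It was -0.13 with scaling over all entries and -0.55 with annotated totals and no TMM factor.

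**Figure D2:**
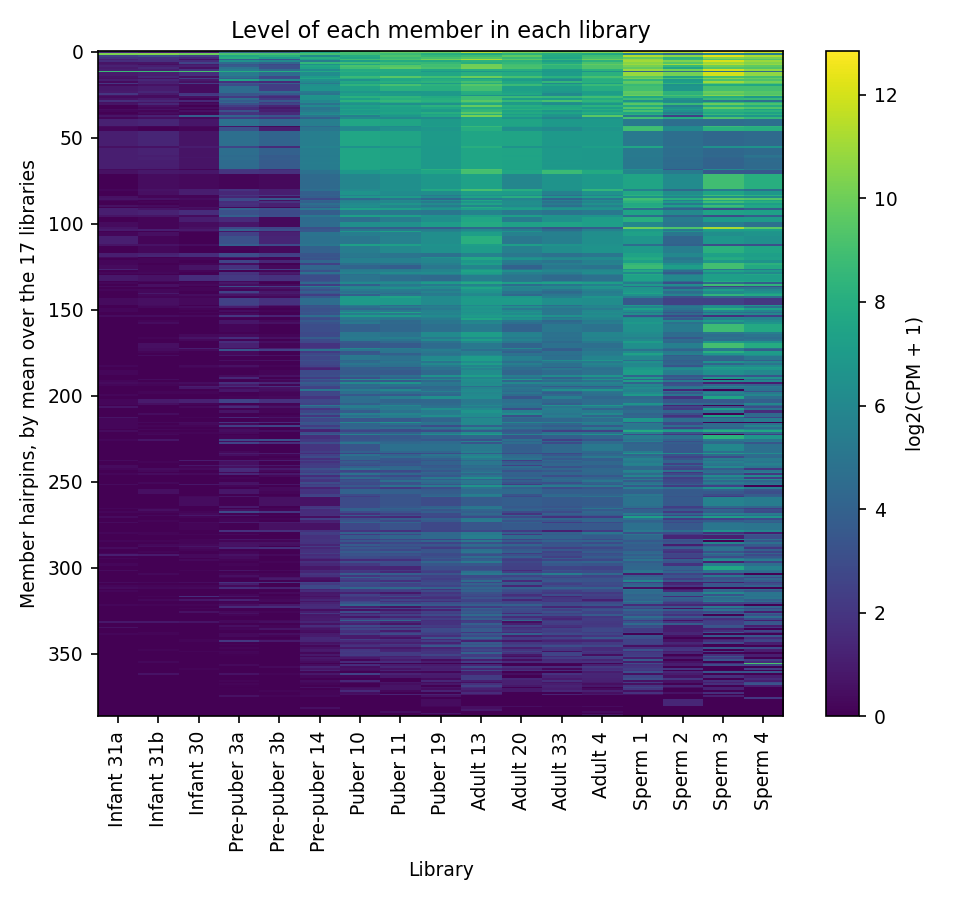
Level of each of the 387 members (rows, ordered by mean) in each of the 17 libraries (columns), as log2(CPM + 1). The 3 Infant columns are dark except for 2 bright rows near the top, Pre-puber 14 stands apart from 3a and 3b, and bands of members that are bright in testis and dark in Sperm, or the reverse, show in the last 4 columns.

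The step from Infant to Pre-puber was a rise for most members that could be tested. Of 359 members that passed the filter on low counts, 288 rose and 2 fell at an adjusted p under 0.05 (edgeR quasi-likelihood F test, Benjamini-Hochberg over all 895 entries tested). Over all entries tested, 54.2% rose and 3.24% fell. The median log2 fold change was 4.74 in members (4.08 with members at 0 in Infant set at their bound). It was 3.70 in the other hairpins and 0.06 in annotated miRNAs. Scaling factors came from the annotated miRNAs, so the median of that class near 0 in the testis comparisons is largely set by the scaling. Since members reached the filter mostly through the later stages, the count is over those 359 and not over the family. Pre-puber 14 carried much of the rise. The median member stood at 6.0 CPM there, against 0.434 in 3a and 0.25 in 3b, and without that library 152 members were called, with a median log2 fold change of 2.20. Its summed germ-cell markers stood at 2609 CPM, against 41.4 in 3a and 74.1 in 3b, and their part in the result was not tested. Without Infant 31a, 183 were called.

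The largest rises without overlap between libraries were in 3 members. Member 11_332971 (chr11:4387830-4387886, minus strand, with CUAGUUGU or its reverse complement) stood at 0.156, 0.114 and 0.117 CPM in Infant and at 2.79, 2.00 and 72.4 CPM in Pre-puber. That is 713 counts against 3, a depth-scaled ratio of 170 (95% counting interval from 58.0 up to 827). The edgeR log2 fold change was 7.48 ± 1.38 (SE, adjusted p = 0.00115). Member 22_2460444 (chr22:6592436-6592489, minus strand) was at 0 in Infant and at 0.744, 0.374 and 30.8 CPM in Pre-puber, at least 84.1-fold higher against a floor of 3 counts over the group. Member 6_4322669 (chr6:50386687-50386745, plus strand) was at least 80.8-fold higher, and it shared 19 bases with 22_2460444. In all of these, Pre-puber 14 was the highest library by more than the whole spread of the others. Without it the log2 fold changes were 4.04 for 11_332971, 5.09 for 22_2460444 and 4.96 for 6_4322669, against 7.48, 9.27 and 9.21 with it, and all were still called by edgeR.

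Some members with CUAGUUGU did not follow Pre-puber 14. Member 16_1243500 stood at 242 and 262 CPM in Pre-puber 3a and 3b and at 80.9 in 14, against 4.57 to 5.80 in Infant (log2 fold change 5.23 ± 0.63 SE, edgeR adjusted p = 0.000144). Member 4_3907974 stood at 206, 262 and 70.1 CPM against 4.46 to 7.17 (5.03 ± 0.67, edgeR adjusted p = 0.000144). Member 23_2572353, which holds CUAGUUGU or its reverse complement, stood at 264, 136 and 259 CPM against 1.99 to 2.80 in Infant. By contrast 2_3250540 stood at 16.2, 13.6 and 177 CPM against 0.910 to 1.56. The same 3 Pre-puber libraries thus ranked in opposite order for different members of the family. These were single members and not the motif as a set. Members with CUAGUUGU as spelled together held 0.0776%, 0.0591% and 0.132% of all counts in Pre-puber 3a, 3b and 14. Those with the reverse complement held 0.029%, 0.0119% and 0.0453%, so both sets were highest in 14. All 29 members with CUAGUUGU on either strand were tested and rose in this step.

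From Pre-puber to Puber, 265 of 359 members rose and none fell by the same test, against 53.0% and 0.894% of all entries tested. The median log2 fold change was 3.03 in members, 3.03 in the other hairpins and 0.05 in annotated miRNAs. The members and other hairpins had close medians but differed in spread, with a 5th percentile of 1.48 in members and -0.37 in the other hairpins, of which 196 of 355 were called higher. Leaving out 1 library of either group moved the members' count. It was 0 without Pre-puber 3a, 348 without Pre-puber 14, 166 without 3b, 172 without Puber 10, 132 without Puber 11 and 61 without Puber 19. It was also 0 with only these groups in the fit (median log2 fold change 3.11), and 0 with libraries of 1 title number summed. With scaling over all entries 85 members rose and 7 fell, a scaling that set the annotated median at -2.45.

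The largest rises in this step came from 3 members that share 19 to 22 bases, among them cccaaagccccccaguaca. Member 2_3274311 (chr2:18972324-18972389, plus strand) was at 0 in all Infant libraries, at 0.062, 0.125 and 3.11 CPM in Pre-puber, and at 24.3, 41.5 and 79.9 CPM in Puber. It rose 44.1-fold (log2 fold change 5.46 ± 1.46 SE, edgeR adjusted p = 0.016). Member 1_1809517 (chr1:93357314-93357379, plus strand) rose 43.4-fold and 20_2251686 (chr20:39658711-39658775, minus strand) 42.9-fold, with nearly the same level in each library. Each of the 3 lost its call without Pre-puber 3a and without Puber 19.

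Between Puber and Adult no member was called, and 0.0% of all entries tested were, by edgeR or by DESeq2. At an unadjusted p under 0.05 there were 2 members and 49 entries in all. The median log2 fold change of members was 0.50, against 0.45 in the other hairpins and -0.02 in annotated miRNAs. In 39 members every Adult library was above every Puber library, and in 2 every one was below. Over all entries tested these shares were 10.7% and 4.69%, so the 39 of 359 were near the background.

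Across the whole course, from Infant to Adult, 356 of the 359 tested members rose and 2 fell by edgeR at an adjusted p under 0.05. Over all entries tested 78.2% rose and 6.93% fell. As in the first step, members reached the filter mostly through the later stages, where they were high, so entry to the test favoured a rise. Of the other hairpins only 355 of 1072 were tested. The median log2 fold change was 8.20 in members (7.41 with zeros at their bound), 7.59 in the other hairpins (297 of 355 higher, 13 lower) and -0.16 in annotated miRNAs (47 of 181 higher, 47 lower). By motif, all 141 tested members with GAGGAAGA on either strand rose, as did all 102 with GCCCUGAG, all 52 with GGACAUG, all 10 with GGUUCGA, all 29 with CUAGUUGU, all 38 with CAGCAUGG and 28 of 29 with UAAGUUC. Of the 7 tested with GUGUGUGU, 5 rose and 2 fell. Of 84 members with none of the motifs 64 were tested, and all 64 rose. This comparison called 283 to 373 members under every alternative run, the low end being the fit that took identical counts once. With no filter on low counts, 371 of 386 members rose and 2 fell, while 56.0% of all 1526 entries were called in either direction. With scaling over all entries, 343 of 352 members rose and 2 fell, while 91.8% of all 885 entries were called in either direction. The median log2 fold change was then 5.74 in members and -2.82 in annotated miRNAs.

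**Figure D3:**
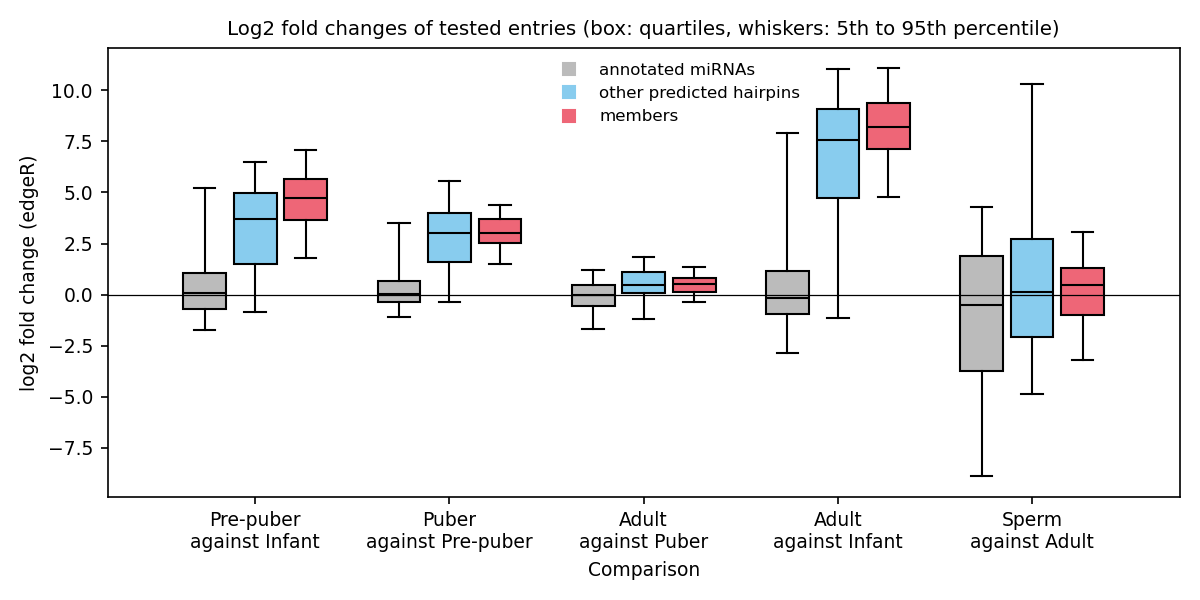
Log2 fold changes from edgeR (vertical axis) of tested members, other predicted hairpins and annotated miRNAs in the 5 comparisons; boxes are quartiles with the median, and whiskers run from the 5th to the 95th percentile. Members and other hairpins lie well above 0 from Infant to Puber while annotated miRNAs centre near 0. All 3 classes centre near 0 from Puber to Adult. Scaling factors came from the annotated miRNAs, so the centre of that class near 0 in testis is largely set by the scaling.

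Member 2_3250540, the most abundant, rose from 1.56, 0.910 and 1.06 CPM in Infant to 2420, 1214, 989 and 1279 CPM in Adult (log2 fold change 10.28 ± 1.14 SE). Puber libraries lay between, at 529, 831 and 964 CPM, below every Adult library. Member 18_1583209, which matches it over much of its length, stood at 0.455 to 0.821 CPM in Infant and at 1070, 473, 471 and 842 CPM in Adult. Member 15_1041433, with GAGGAAGA in both orientations, stood at 1.25, 2.05 and 0.469 CPM in Infant and at 2329, 752, 353 and 972 CPM in Adult (9.76 ± 1.34). Its Adult libraries spread by more than its Puber ones, which stood at 465, 586 and 1145 CPM, and the groups overlap.

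The largest rises from Infant to Adult were from members not seen in any Infant library, so their folds are lower bounds against a floor of 3 counts over the group. Member 31_3625056 (chr31:18519150-18519235, minus strand) stood at 147, 43.1, 73.5 and 102 CPM in Adult, at least 725-fold higher (2037 counts against 0). Member 15_1121697 (chr15:64357917-64357960, minus strand), which shares 19 bases with it, was at least 718-fold higher. Member 4_3993582 (chr4:48927497-48927538, minus strand, with GCCCUGAG on either strand) stood at 178, 88.7, 45.3 and 54.0 CPM, at least 724-fold higher.

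The 2 members that fell from Infant to Adult both hold a GU repeat. Member 3_3841966, printed above, stood at 1261, 1350 and 1048 CPM in Infant, 547, 530 and 489 in Pre-puber, 479, 434 and 261 in Puber, and 214, 312, 245 and 212 in Adult. It fell by 2.31 on the log2 scale from Infant to Adult (SE 0.34, edgeR adjusted p = 5.78e-05), and Infant and Adult did not overlap. Member 15_1071104 (chr15:13921867-13921922, minus strand) shared 25 bases of the repeat with it. It stood at 437, 429 and 552 CPM in Infant and at 110, 133, 110 and 100 in Adult, and fell by 2.06 (SE 0.38, edgeR adjusted p = 0.000243). In Pre-puber they were already lower than in Infant, by 1.23 (SE 0.36, adjusted p = 0.0144) and 1.07 (SE 0.41, adjusted p = 0.0382) on the log2 scale by edgeR. Those earlier calls were lost in 4 and 10 of 14 alternatives. They were the 2 members with their highest mean in Infant. The other 5 tested members with GUGUGUGU rose from Infant to Adult.

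**Figure D4:**
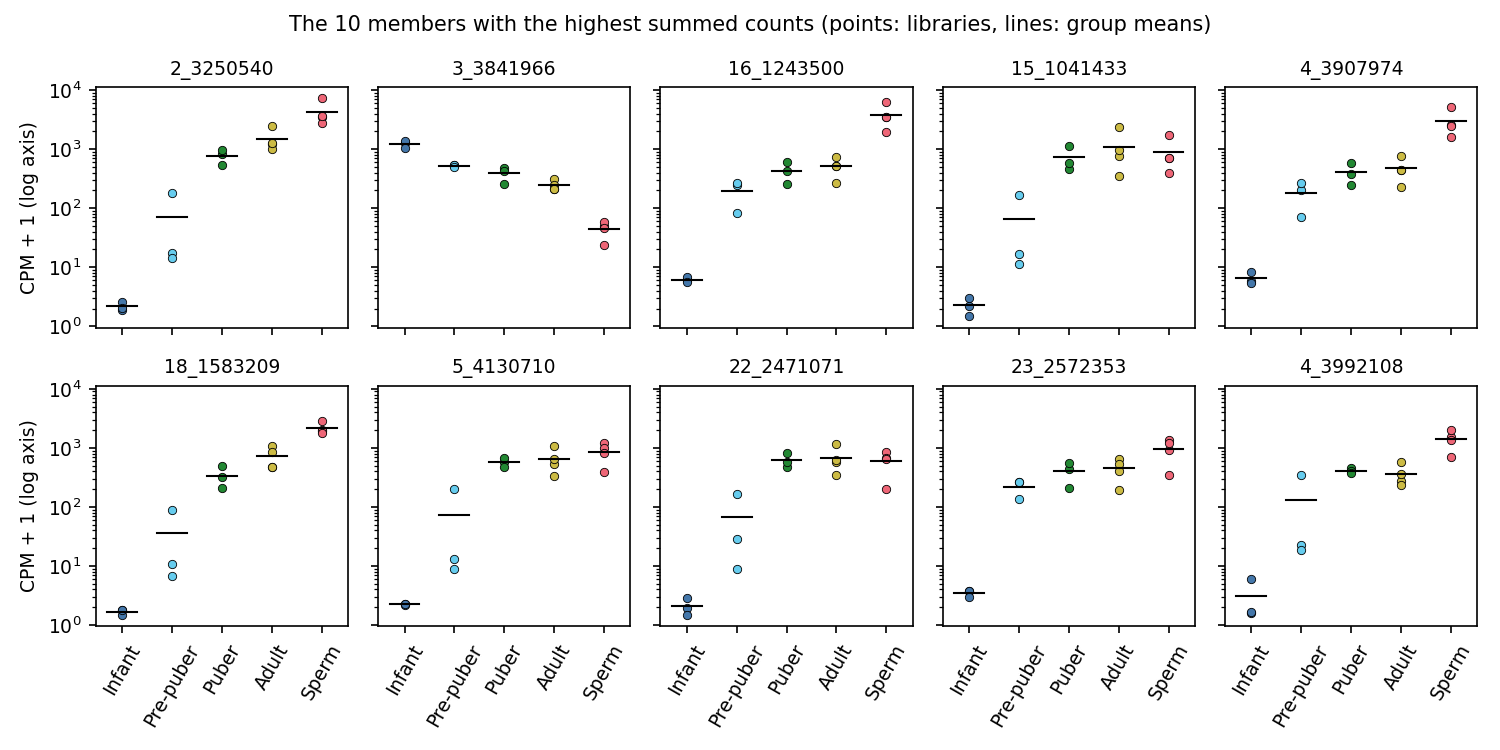
CPM + 1 (log axis) of the 10 members with the highest summed counts in each library (points) by group, with group means as lines. Of these 10, 9 climb from group means of 0.685 to 5.48 CPM in Infant to 363 to 1476 in Adult, and 3_3841966 falls from a mean of 1220 CPM in Infant to 43.5 in Sperm.

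Between Adult testis and Sperm the family split. Of 338 members tested, 83 were higher in Sperm and 68 lower by edgeR at an adjusted p under 0.05, with a median log2 fold change of 0.46. Of all 766 entries tested 31.5% were higher and 30.2% lower, so the family had fewer calls than the table as a whole. The medians of other hairpins and annotated miRNAs were 0.15 and -0.52. The split depended on the scaling. It was 157 higher and 60 lower with scaling factors from these 8 libraries alone, 108 and 71 with DESeq2, 66 and 111 with scaling over all entries, and 38 and 124 with annotated totals and no scaling factor. The annotated median moved with it, to 0.26, -0.64, -1.23 and -1.61 in that order. Differences within the family are less exposed to this, since a scaling shifts all members of a library together.

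Within the family, the counts in each direction differed by motif and, for some motifs, by strand. They are to be read beside the shares over all 766 entries tested, 31.5% higher and 30.2% lower. Of 78 tested members with GCCCUGAG as spelled, 40 were lower in Sperm and 18 higher, with a median log2 fold change of -2.40. Counted by distinct sets of counts, these were 22 lower and 9 higher of 46. Some of these sets were nearly equal to each other, so they are not independent either. Of the 24 members with its reverse complement, 2 were lower and 4 higher, with a median of 0.21. These counts moved with the scaling. They were 10 lower and 3 higher with scaling over all entries (median -0.39), and 11 and 2 with annotated totals and no scaling factor (median -0.74). With factors from these 8 libraries alone they were 0 lower and 8 higher (median 0.91). Members with CUAGUUGU showed the opposite arrangement. Of 20 with the motif as spelled 12 were higher and 1 lower (median 2.17). Of 9 with the reverse complement 7 were lower and none higher (median -2.16). By distinct sets of counts these were 11 higher and 1 lower of 19, and 5 lower and 0 higher of 7. Of 36 with GAGGAAGA in both orientations 18 were higher and 3 lower (median 1.41), but with annotated totals and no scaling factor 5 were higher and 8 lower (median 0.43). Under the 4 other scalings given for the whole family, the median for GCCCUGAG as spelled stayed between -3.21 and -1.64. For CUAGUUGU it stayed between 1.17 and 2.76 as spelled, and between -3.04 and -1.43 as the reverse complement. Of 24 members with GAGGAAGA only as spelled 4 were higher and 5 lower, and of 78 with only its reverse complement 23 and 14. By distinct sets of counts those with only the reverse complement were 12 higher and 9 lower of 42. With annotated totals and no scaling factor they were 13 higher and 18 lower of 79 members. Of 34 with GGACAUG as spelled 3 were higher and 0 lower, but this depended on the scaling. With scaling over all entries 2 were higher and 10 lower (median -0.25). With annotated totals and no scaling factor 1 was higher and 12 lower (median -0.65), and with factors from these 8 libraries alone 14 and 0 (median 0.98). For CAGCAUGG, 7 of 16 were higher and 2 lower as spelled, and 3 of 16 and 1 as the reverse complement. For UAAGUUC, 5 of 18 were higher and 2 lower as spelled, and 1 of 8 and 0 as the reverse complement. All these groups were formed after the values were seen, and the difference between orientations was not tested.

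Shares of all counts, which use no scaling factor, gave the same direction for GCCCUGAG as spelled and for CUAGUUGU in each orientation. Members with GCCCUGAG as spelled held 0.768% to 1.08% in Adult libraries and 0.222% to 0.391% in Sperm. Members with CUAGUUGU as spelled held 0.365% to 0.696% in Adult and 0.871% to 1.79% in Sperm, while those with the reverse complement held 0.144% to 0.305% and 0.0492% to 0.104%. In each of these 3 sets the Adult and Sperm libraries did not overlap. Members with GAGGAAGA in both orientations held 0.261% to 0.698% in Adult and 0.242% to 0.542% in Sperm, which overlap. Members with the reverse complement of GGACAUG held 0.341% to 0.649% in Adult and 0.688% to 1.37% in Sperm, although 6 of the 16 tested were higher and 5 lower.

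The 3 largest rises and 3 largest falls from Adult to Sperm are given with their sequences, motifs in capitals as before, and not all of them hold the motifs just described. Member 6_4319129 lies at chr6:44602628-44602679 on the plus strand, 27_3047980 at chr27:24961668-24961712 on the minus strand and 7_4617001 at chr7:20233315-20233382 on the minus strand. Of those lower in Sperm, 7_4567916 lies at chr7:79507569-79507614 on the plus strand, 22_2481128 at chr22:25756781-25756845 on the minus strand and 3_3679841 at chr3:33252041-33252078 on the plus strand.
6_4319129: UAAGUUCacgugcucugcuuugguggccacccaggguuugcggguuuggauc
27_3047980: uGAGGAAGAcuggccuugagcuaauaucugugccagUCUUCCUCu
7_4617001: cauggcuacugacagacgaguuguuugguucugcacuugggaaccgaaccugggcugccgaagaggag
7_4567916: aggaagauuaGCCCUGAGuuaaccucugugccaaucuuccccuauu
22_2481128: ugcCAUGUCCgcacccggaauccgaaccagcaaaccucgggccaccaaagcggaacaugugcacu
3_3679841: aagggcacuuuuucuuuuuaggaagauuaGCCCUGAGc
Member 6_4319129, with UAAGUUC as its only motif, stood at 19.7, 17.8, 9.45 and 14.0 CPM in Adult and at 1002, 616, 2266 and 743 CPM in Sperm. It was 75.9-fold higher in Sperm (log2 fold change 6.25 ± 0.62 SE, edgeR adjusted p = 1.03e-08), and every Sperm library was far above every testis library of any stage. Member 27_3047980, with GAGGAAGA in both arms, stood at 12.3, 10.3, 4.33 and 4.77 CPM in Adult and at 229, 146, 255 and 201 in Sperm, 26.4-fold higher (edgeR adjusted p = 5.68e-07). Member 7_4617001, with none of the motifs, rose 22.8-fold.

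On the other side, 7_4567916 stood at 17.3, 14.2, 15.0 and 14.5 CPM in Adult and had 1 count in all of Sperm. Its depth-scaled ratio of Adult to Sperm was 86.5, with a 95% counting interval of 15.4 to 3429 (edgeR adjusted p = 3.56e-06). Member 3_3679841, which shares 18 bases with it that hold GCCCUGAG, stood at 133, 133, 88.3 and 76.8 CPM in Adult and at 8.51, 5.79, 2.33 and 4.31 in Sperm. It was 19.6-fold lower in Sperm (edgeR adjusted p = 5.54e-06). Member 22_2481128, which holds the reverse complement of GGACAUG, was 21.9-fold lower, at 49.5 to 141 CPM in Adult and at most 7.01 in Sperm. All 6 kept their call under each of the 15 alternatives run.

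Among the abundant members, the direction differed. Member 16_1243500 stood at 513, 749, 267 and 517 CPM in Adult and at 3530, 1931, 6348 and 3506 in Sperm (log2 fold change 2.90 ± 0.48 SE, edgeR adjusted p = 1.9e-05). Member 2_3250540 reached 3545, 2725, 7368 and 3618 CPM in Sperm, above every Adult library (1.55 ± 0.45, edgeR adjusted p = 0.00432). Member 15_1041433, at 1745, 390, 698 and 698 CPM in Sperm, lay within its Adult range (-0.32 ± 0.55, edgeR adjusted p = 0.62). Member 3_3841966 went on falling, to 49.1, 22.6, 57.1 and 45.2 CPM in Sperm (-2.50 ± 0.51, edgeR adjusted p = 0.000219).

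**Figure D5:**
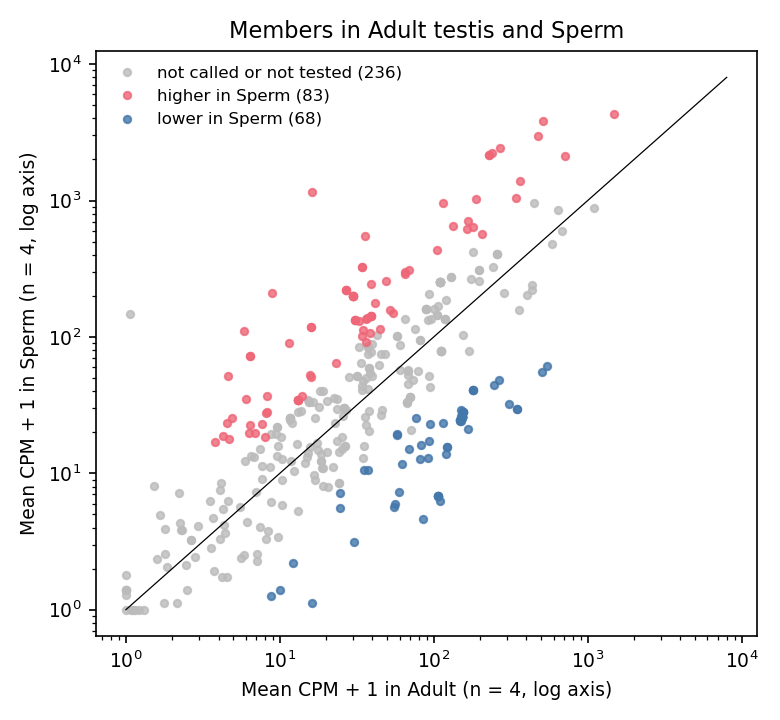
Mean CPM + 1 of each member in Sperm (vertical, n = 4) against Adult testis (horizontal, n = 4), both log axes, with the line of equal level; red members were higher in Sperm (83), blue lower (68) and grey not called or not tested (236). The called members lie on both sides of the line at most levels, and 6_4319129 is the red point far above it at 15.2 CPM in Adult.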

How the data were processed

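Small RNA of 13 testis and 4 sperm samples was analysed from 1 deposited table of counts, which are whole reads per entry, as the values show. Per the submitters' processing notes, reads were trimmed with Trimmomatic (version not given) and EquCab3.0 was the build. For the aligner, hairpin predictor and counter, names are not given in the sources used here. Numbers in sample titles linked the authors' count columns to samples. Adult and Sperm both have a sample numbered 4, and the column prefix se, which other sperm numbers carry, told them apart. A further 19 value columns were not used. Deposited start positions count from 0, and 1 was added.

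From the counts, the row with the highest sum was kept for each identifier (1733 of 1763 rows). Linking used Python 3.11.15 with networkx 3.6.1, and folding RNAfold 2.7.2. Differences were tested with edgeR 4.0.16 (R 4.3.3, quasi-likelihood F test, filterByExpr, Benjamini-Hochberg at 0.05). Library sizes and 1 set of TMM factors over the 17 libraries came from annotated miRNAs. The 13 testis libraries were fitted together (895 entries tested), and Adult with Sperm in 8 libraries (766). Levels are CPM on that scale. Standard errors were derived from the F statistic. Counts simulated for Adult against Infant (846 entries tested) gave back 84.3% of 197 entries changed 4-fold, and 3.49% of calls were unchanged entries. The simulated entries were independent, with 1 mean over the testis stages before the change and a fixed dispersion (spread beyond counting error) of 0.2. Many members instead share counts and are near 0 in Infant, so these rates cannot be carried over to them.

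Members named are the 10 with the highest summed counts and, per comparison, up to 3 rises and 3 falls that were called, reached a group mean of 10 CPM and had non-overlapping libraries, identical counts taken once. Alternatives were DESeq2 1.42.0, other scalings, no filter, other fits, summed libraries of 1 title number and each library left out. Members and lists were chosen with earlier results of these data known.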

Additional observations from a re-analysis of the deposited data

Results flagged for a closer look

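In Adult and Sperm, the groups with 4 libraries, the levels of the named members and the family's share of counts gave 54 sets of 4 values, and 5 had 1 library far from the other 3 by Dixon's test at the 95% level, and chance flags about 1 in 20 such groups. Of these, 3 were the related members with the largest rises from Pre-puber to Puber, each high in Sperm 3. Member 2_3274311 stood at 155 CPM there, against 2.63 to 20.5 in the other Sperm libraries, 1_1809517 at 185 against 2.63 to 24.8, and 20_2251686 at 140 against 3.69 to 25.8. Member 31_3625056 stood at 24.0 CPM in Sperm 1 against 13.2 to 14.0. Member 7_4567916 stood at 0.501 CPM in Sperm 1, which is its 1 count, and at 0 in the others.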

How the results depend on the processing

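Against the main count of 290 members called from Infant to Pre-puber, 111 were called with only these groups fitted (116 members tested), and 152 to 325 with 1 library left out. From Pre-puber to Puber the main count was 265. It was 0 with only these groups fitted, 0 with libraries of 1 title number summed, 92 with scaling factors and totals over all entries, and 0 to 348 with 1 library left out. From Puber to Adult 1 member was called with only these groups fitted, and 0 to 0 with 1 library left out. With 1 library left out, Infant to Adult gave 354 to 364 calls and Sperm against Adult 131 to 197. The family had 717 members with a shared stretch of 12 bases, 257 with 18 and 398 with either strand. Of 275 alternative values of the 19 named results, 249 kept direction and call, 26 lost the call and 0 reversed. Scaling factors from annotated miRNAs of the fitted libraries alone were added after seeing the data. The causes were not tested. No paired analysis was possible because the groups compared share fewer than 2 replicate numbers. Depth limits Infant least and Sperm most, and members with identical counts are not independent.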

Other observations

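One member was almost confined to a single library, and was picked out after its values were seen. Member 24_2723734 (chr24:47603131-47603174, plus strand) had 534 of its 554 counts in Sperm 4, at 575 CPM, against at most 7.01 CPM in any other library. It did not pass the filter on low counts and was not tested. Of 358 members with at least 100 counts, 5 had at least 50% of their summed CPM in 1 library, and the other 4 (14_909872 and 6_4442344 with identical counts, 30_3547076 and 5_4066869 with identical counts) were highest in Sperm 3, at 208 and 298 CPM against at most 47.4 and 103 elsewhere.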
